A study of Rattus norvegicus with 6 samples.

Results

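Conjugating enzymes were examined in rat glomerular isolates that differ in their content of parietal epithelial cells (PECs), the cells that line Bowman's capsule. The members were all array probesets annotated with exactly 1 gene symbol beginning with Gsta, Gstm, Gstp, Gstt, Gstk, Gsto, Gstz, Mgst, Ugt1, Ugt2, Ugt3 or Sult, and a gene with several probesets was represented by the brightest over the 6 arrays. This gave 37 genes from 38 probesets, out of 14506 genes and 29215 probesets. They comprise 17 cytosolic and kappa class glutathione S-transferases, 2 microsomal glutathione S-transferases, 7 UDP-glucuronosyltransferases of the Ugt2 family and 11 sulfotransferases. The prefixes Gstz, Ugt1 and Ugt3 gave no gene with a symbol of its own, and 8 further probesets of these families carry several symbols and were not analysed here.

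Both groups came from untreated male Sprague-Dawley rats, and no cells were cultured. The PEC-enriched isolates were capsulated glomeruli retained on a 90 µm sieve, and the PEC-deprived isolates were decapsulated glomeruli from a 75 µm sieve, with 3 Affymetrix whole-transcript rat arrays in each group. Isolations were made from individual rats (n = 3 animals), and whether the 2 fractions shared rats is not stated outright. Neither isolate is a pure cell population, since both hold the other glomerular cells, and tubule fragments were counted in both groups. By the paper's counts the PEC-enriched preparations had similar shares of tubules and also held decapsulated glomeruli. The tubule share of the PEC-deprived preparations was uneven, from no fragments to the largest share of any preparation. Values are RMA log2 expression values, and a log2 fold change is the PEC-enriched mean minus the PEC-deprived mean. Each difference was tested by limma within a fit of all probesets, and the threshold of the study's methods, an adjusted p under 0.01, was kept. A fold change in such bulk RNA cannot tell fewer cells of a type from less RNA per cell.

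Conjugation joins a polar group to a drug, toxin, hormone or product of lipid oxidation, which is then carried out of the cell by transporters. Glutathione S-transferases use glutathione, UDP-glucuronosyltransferases use UDP-glucuronic acid made from glucose, and sulfotransferases use the activated sulfate donor PAPS. In the kidney these enzymes are best known from tubule epithelium, above all the proximal tubule, which also degrades glutathione conjugates on its brush border.

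The alpha class genes Gsta4 and Gsta1 had the largest differences among the glutathione enzymes, and the promoters of this class are shown for that reason. RefSeq promoter windows of 300 bases, from 250 bases before to 50 after the start in the GRCr8 assembly, were at hand for 31 of the 37 genes, in 33 windows. They were searched on both strands for the core of the antioxidant response element (TGACNNNGC), the site used by the stress-responsive factor Nrf2, for a short recognition site of the hepatocyte nuclear factor HNF1 (GTTAAT) and for the core of the xenobiotic response element (GCGTG), the site of the aryl hydrocarbon receptor. Below are the windows of Gsta1 (chr9:31216483-31216782, minus strand), the first of the windows of Gsta3 (chr9:31154739-31155038, plus strand) and that of Gsta4 (chr8:87947015-87947314, plus strand), each 5′ to 3′ on the strand of the gene. Capitals mark the matches, which read ATTAAC and CACGC where the short site and the xenobiotic core lie on the opposite strand.
Gsta1: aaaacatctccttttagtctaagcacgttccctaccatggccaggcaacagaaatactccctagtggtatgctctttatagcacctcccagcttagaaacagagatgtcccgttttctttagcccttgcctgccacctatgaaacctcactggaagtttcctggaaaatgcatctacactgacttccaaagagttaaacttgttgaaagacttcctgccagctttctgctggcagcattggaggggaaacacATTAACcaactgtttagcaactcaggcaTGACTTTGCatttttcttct
Gsta3: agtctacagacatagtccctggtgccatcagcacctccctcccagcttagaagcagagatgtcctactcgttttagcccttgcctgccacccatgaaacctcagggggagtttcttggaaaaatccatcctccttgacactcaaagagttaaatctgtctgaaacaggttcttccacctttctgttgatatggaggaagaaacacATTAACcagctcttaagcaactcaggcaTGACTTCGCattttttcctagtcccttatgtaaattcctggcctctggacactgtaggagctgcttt
Gsta4: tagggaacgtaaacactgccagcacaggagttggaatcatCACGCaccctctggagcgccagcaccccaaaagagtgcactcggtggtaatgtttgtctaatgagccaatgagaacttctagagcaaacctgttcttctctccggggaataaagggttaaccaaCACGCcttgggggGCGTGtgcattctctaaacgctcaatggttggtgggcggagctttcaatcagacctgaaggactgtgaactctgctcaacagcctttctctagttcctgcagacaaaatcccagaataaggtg

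In Gsta1 and Gsta3 the HNF1 short site and the antioxidant core were separated by 22 bases in a stretch of 37 bases, of which 33 were identical between the genes. The Gsta4 window held neither of these motifs, and its capitals are xenobiotic cores. Over all members, the antioxidant core was found in Gsta1, Gsta3, Gstm5, Gstm7 and Gstp1, and 12.1% of the 33469 windows of the RefSeq table hold it. The HNF1 short site occurred in Gsta1, Gsta3, Sult2a2 and Ugt2a3, against 7.45% of all windows. The xenobiotic core occurred in 6 members (Gsta3 in its other window, Gsta4, Gstm4, Gstm5, Gstp1 and Sult2b1), and 29.7% of all windows hold it. In Gstm5 a match to the antioxidant core overlapped one to the xenobiotic core. These matches are a description of letters in a window and not of factor binding.

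None of the 37 conjugating enzymes passed the test. The smallest limma adjusted p among them was 0.166 (Gsta3), and percent called was 0% over all genes tested, where the smallest adjusted p was 0.152. This 0% holds for limma and not for the study's own Bayesian test. At the same threshold on these arrays the study reported many differentially expressed genes, most of them higher in PEC-enriched isolates. At an unadjusted p under 0.05, 8 members (21.6%) were higher in PEC-enriched isolates against 7.96% of all genes, and 0 members were lower against 5.65%. These 8 were Gsta1, Gsta3, Gsta4, Gstm2, Gstk1, Mgst1, Ugt2b35 and Sult1c2. A regularised test, which pools each variance with that of probesets of similar level, also called 0 members, against 0.669% of all genes higher and 0.0207% lower. Its smallest adjusted p values among the members were 0.0231 (Gsta4), 0.0312 (Ugt2b35) and 0.0465 (Sult1c2), all above the threshold of 0.01.

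The mean was higher in PEC-enriched isolates for 24 of the 37 members (64.9%), compared with 44.8% of all genes, and lower for 13. The median log2 fold change was 0.07 over the members (0.107 without PEC-deprived replicate 1) and -0.02 over all genes. In 4 members (10.8%) the 3 PEC-enriched values all exceeded the PEC-deprived ones, compared with 9.68% of all genes, and in 2 members (5.41%) they all lay below, compared with 9% of all genes. The first were Gsta3, Gsta4, Gstm1 and Gstk1, and the second Gstm3 and Ugt2a1. These shares lie near or below those of all genes. Of the 14 members above the median level of all probesets (6.72), 11 (78.6%) averaged higher in PEC-enriched isolates, compared with 49% of genes above that level, and their median log2 fold change was 0.21. Of the other 23 members 13 averaged higher, and the median was 0.06. Signal over background is unknown for these values, so low members may lie close to background.

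**Figure D1:**
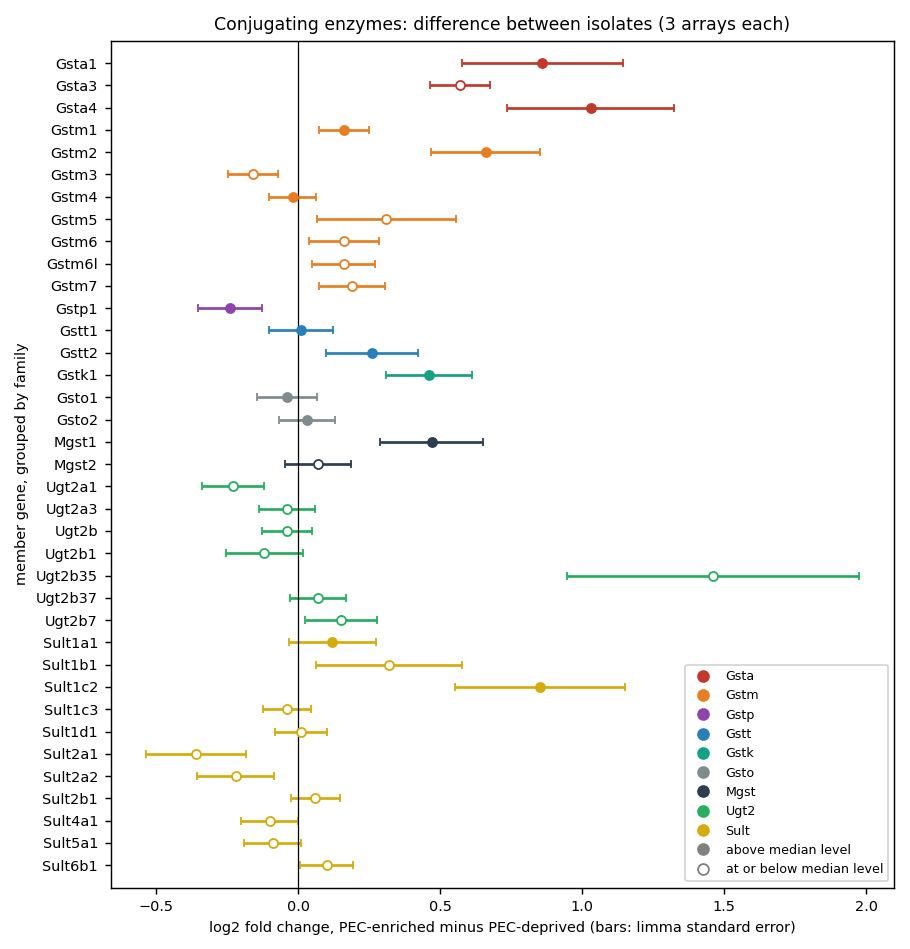
Log2 fold change of each of the 37 members (x axis, PEC-enriched minus PEC-deprived) with its standard error, grouped by family on the y axis. Differences over 0.5 in size were all positive and belonged to 6 genes, Gsta1, Gsta3, Gsta4, Gstm2, Ugt2b35 and Sult1c2, and no member passed an adjusted p under 0.01.

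Of the 37 differences, 12 were under 0.1 in size, 10 lay between 0.1 and 0.2, 9 between 0.2 and 0.5, and 6 above 0.5. A difference above 2-fold was seen in 2 members (5.41%), Gsta4 and Ugt2b35, compared with 0.965% of all genes.

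All 3 alpha class enzymes had higher means in PEC-enriched isolates, with a median log2 fold change of 0.86. Gsta4, the transferase that removes 4-hydroxynonenal formed during lipid peroxidation, read 7.20, 7.95 and 7.42 on the PEC-enriched arrays and 7.08, 5.92 and 6.49 on the PEC-deprived arrays. The groups did not overlap, but PEC-deprived replicate 1 lay only just below the lowest PEC-enriched array. The difference was 1.03, or 2.04-fold (SE 0.295, limma adjusted p = 0.286). It was 0.74 without PEC-deprived replicate 2 and 1.32 without PEC-deprived replicate 1. The other Gsta4 probeset read 7.17, 8.0 and 7.62 against 7.06, 5.62 and 6.37, a difference of 1.25 (SE 0.347, limma adjusted p = 0.274). The 2 Gsta4 probesets analysed here therefore gave the same order of the arrays. Gsta4 is also on the list of differentially expressed genes that the study drew from these arrays, so its direction here is not independent evidence. That list holds 3 Gsta4 entries, all higher in PEC-enriched isolates, and the 2 probesets here do not cover all of them.

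Gsta1, an alpha class transferase that also reduces organic peroxides, read 9.44, 9.94 and 9.67 on the PEC-enriched and 9.49, 8.26 and 8.72 on the PEC-deprived arrays. PEC-deprived replicate 1 lay above the lowest PEC-enriched array, so the groups overlapped. The log2 fold change was 0.86 (SE 0.283, limma adjusted p = 0.337), and it ran from 0.58 without PEC-deprived replicate 2 to 1.19 without PEC-deprived replicate 1. Gsta3, a further alpha class subunit, had values of 5.31, 5.18 and 4.99 against 4.56, 4.57 and 4.64. These groups were clearly apart, with the PEC-deprived arrays within 0.1 of each other. Its log2 fold change of 0.57 had the smallest standard error of the 3 genes (0.105, limma adjusted p = 0.166). Gsta3 lay below the median level of all probesets, and Gsta1 and Gsta4 above it.

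The mu class comprises 8 members, which lie side by side on chromosome 2 in the RefSeq annotation and are close paralogs. Array probes may be shared between them, so the assignment of a value to one of them is uncertain. The mean was higher in PEC-enriched isolates in 6 of the 8, and the median log2 fold change was 0.16. Gstm2 carried the largest difference, with 7.60, 8.02 and 8.02 against 6.95, 7.09 and 7.63. PEC-deprived replicate 3 lay just above PEC-enriched replicate 1, and the difference was 0.66 (SE 0.193, limma adjusted p = 0.297). Gstm5, with an antioxidant core in its promoter window, read 5.88, 6.89 and 6.47 against 5.82, 6.27 and 6.24. PEC-enriched replicate 1 lay below 2 of the PEC-deprived arrays, and the log2 fold change was 0.31 (SE 0.244, limma adjusted p = 0.773). It was 0.07 without PEC-enriched replicate 2, 0.16 without PEC-deprived replicate 1 and 0.57 without PEC-enriched replicate 1.

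Gstm7 read 6.40, 6.58 and 6.55 against 6.23, 6.20 and 6.53, with overlapping groups and a difference of 0.19 (SE 0.117, limma adjusted p = 0.682) that was 0.30 without PEC-deprived replicate 3. Gstm1, the brightest mu class probeset, varied little, with 8.49, 8.58 and 8.54 against 8.42, 8.29 and 8.41. Its groups did not overlap although the difference was only 0.16 (SE 0.0886, limma adjusted p = 0.615). Gstm3 was lower in PEC-enriched isolates without overlap, with 4.45, 4.47 and 4.44 against 4.57, 4.71 and 4.56, a difference of -0.16 (SE 0.0882, limma adjusted p = 0.632). Gstm6 and Gstm6l each differed by 0.16, and Gstm4 by -0.02. Neighbouring mu class genes thus did not share one direction, and none of these differences passed the test.

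The remaining cytosolic classes were close to level between the isolates. Gstp1, the pi class enzyme known as a marker of altered foci in rat liver, was the only member of its class, with 9.85, 9.58 and 9.75 against 9.93, 9.85 and 10.11. The groups overlapped in part, and the difference was -0.24 (SE 0.113, limma adjusted p = 0.541). In sign Gstp1 thus stood opposite to the alpha class. The theta class gene Gstt1, which acts on small halogenated compounds, read 7.80, 7.87 and 7.81 against 8.04, 7.68 and 7.75, a difference of 0.01. Gstt2 read 8.26, 8.22 and 7.74 against 8.02, 7.74 and 7.67, a difference of 0.26 (SE 0.161, limma adjusted p = 0.68), which ran from 0.17 without PEC-enriched replicate 1 to 0.43 without PEC-enriched replicate 3. Values of both theta genes overlapped between the groups.

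The omega class gene Gsto1, whose product reduces dehydroascorbate, read 9.01, 9.17 and 9.15 against 9.06, 9.07 and 9.31, a difference of -0.04. Gsto2 read 7.02, 7.25 and 7.13 against 7.16, 7.13 and 7.03, a difference of 0.03. Values of both omega class genes overlapped between the isolates. Gstk1, a kappa class enzyme of mitochondria and peroxisomes, read 7.12, 7.40 and 7.22 against 6.96, 6.47 and 6.94. Its groups did not overlap, and the log2 fold change was 0.46 (SE 0.151, limma adjusted p = 0.342), or 0.29 without PEC-deprived replicate 2.

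Mgst1, the microsomal enzyme that protects membranes from lipid peroxides, read 9.10, 9.81 and 9.67 on the PEC-enriched and 8.98, 8.99 and 9.20 on the PEC-deprived arrays. PEC-enriched replicate 1 lay below PEC-deprived replicate 3, and the difference was 0.47 (SE 0.181, limma adjusted p = 0.405). Without PEC-enriched replicate 1 it was 0.69. Mgst2, which can also form leukotriene C4, read 5.99, 6.29 and 6.00 against 6.14, 5.93 and 6.02, a difference of 0.07.

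**Figure D2:**
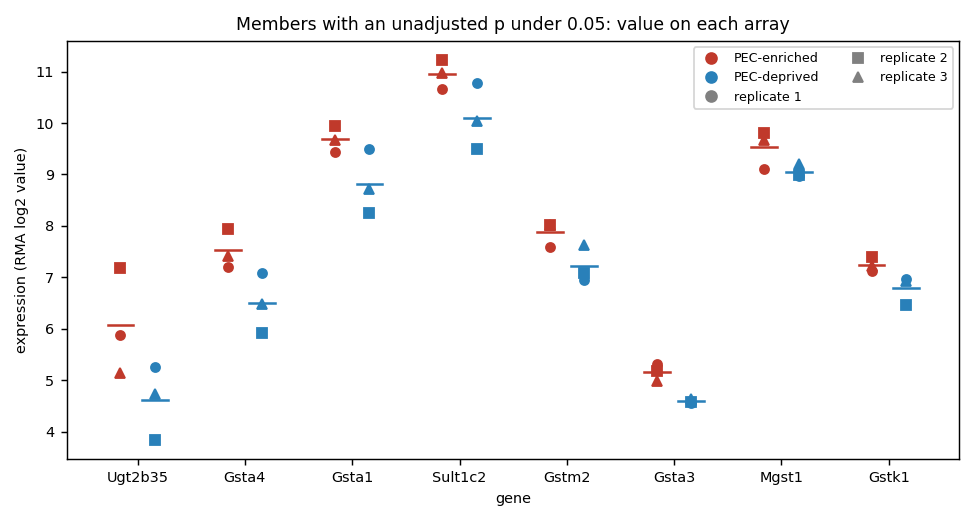
RMA log2 value on each array (y axis; circles, squares and triangles for replicates 1, 2 and 3) of the 8 members with an unadjusted p under 0.05 (x axis) in PEC-enriched (red) and PEC-deprived (blue) isolates, with lines at the group means. In Gsta1, Gsta4, Ugt2b35 and Sult1c2 PEC-deprived replicate 1 lies nearest to the PEC-enriched arrays, whereas in Gsta3 the PEC-deprived arrays lie together between 4.56 and 4.64.

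Of the UDP-glucuronosyltransferases, none of the 7 Ugt2 probesets lay above the median level of all probesets. The mean was higher in PEC-enriched isolates for 3 and lower for 4, with a median log2 fold change of -0.04 (0.025 without PEC-deprived replicate 2). These genes are close paralogs and neighbours on chromosome 14, so probes may again be shared. Ugt2b35, a member of the family that glucuronidates steroids and drugs, stood apart with 5.89, 7.18 and 5.14 against 5.25, 3.85 and 4.73. PEC-enriched replicate 2 was far above and PEC-deprived replicate 2 far below the other arrays. The difference of 1.46, or 2.76-fold, was the largest of any member but had a standard error of 0.514 (limma adjusted p = 0.361), since the SD was 1.03 among PEC-enriched and 0.707 among PEC-deprived arrays. It was 0.91 without PEC-enriched replicate 2 and 1.93 without PEC-enriched replicate 3.

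Ugt2a1, known from olfactory tissue, read 4.36, 4.33 and 4.33 against 4.39, 4.57 and 4.76, a difference of -0.23 without overlap (SE 0.11, limma adjusted p = 0.534), or -0.14 without PEC-deprived replicate 3. Ugt2b7 read 4.44, 4.20 and 4.43 against 4.03, 4.17 and 4.42, a difference of 0.15 with overlapping groups, which ran from 0.06 without PEC-deprived replicate 1 to 0.26 without PEC-deprived replicate 3. The differences of Ugt2b1 (-0.12), Ugt2b37 (0.07), Ugt2a3 (-0.04) and Ugt2b (-0.04) were smaller still. Outside Ugt2b35, no Ugt2 gene thus differed by more than 0.23 in either direction.

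The 11 sulfotransferases split about evenly, with a higher mean in PEC-enriched isolates for 6, a lower mean for 5 and a median log2 fold change of 0.01 (from -0.048 to 0.029 with 1 array left out). Sult1c2, a sulfotransferase of kidney and stomach in the rat, was the exception in the size of its difference, with 10.66, 11.23 and 10.97 against 10.78, 9.49 and 10.04. PEC-deprived replicate 1 lay within the range of the PEC-enriched arrays and the other PEC-deprived arrays well below it. The difference was 0.85, or 1.8-fold (SE 0.299, limma adjusted p = 0.361), and ran from 0.55 without PEC-deprived replicate 2 to 1.19 without PEC-deprived replicate 1.

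Sult2a1, a hydroxysteroid sulfotransferase best known from liver, had its lower mean in PEC-enriched isolates, with 3.86, 3.81 and 3.86 against 3.80, 4.25 and 4.56. PEC-deprived replicate 1 was the lowest of all 6 arrays, and the difference was -0.36 (SE 0.175, limma adjusted p = 0.548). It was -0.18 without PEC-deprived replicate 3 and -0.56 without PEC-deprived replicate 1. Sult1b1, which sulfates thyroid hormones and phenols, read 5.39, 4.94 and 5.77 against 5.55, 4.81 and 4.77, a difference of 0.32 (SE 0.257, limma adjusted p = 0.776). It ran from 0.12 without PEC-enriched replicate 3 to 0.57 without PEC-deprived replicate 1, and was 0.21 without PEC-deprived replicate 2 and 0.18 without PEC-deprived replicate 3. Its highest and lowest arrays came from different groups, but the values between them were mixed. The phenol sulfotransferase Sult1a1 differed by 0.12 and Sult2a2 by -0.22. Sult1c3 (-0.04), Sult1d1 (0.01), Sult2b1 (0.06), Sult4a1 (-0.10), Sult5a1 (-0.09) and Sult6b1 (0.10) lay between -0.10 and 0.10.

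The order of the PEC-deprived arrays split the 8 members with an unadjusted p under 0.05. From high to low it was replicate 1, 3, 2 in Gsta1, Gsta4, Gstk1, Ugt2b35 and Sult1c2 (62.5%). It was replicate 3, 2, 1 in Gsta3, Gstm2 and Mgst1 (37.5%). Among the 1154 genes that were higher at this unadjusted p, the first order was found in 60% and the second in 4.25%. In the proximal tubule list, 20 of 21 genes (95.2%) had the first order. This order was not particular to that list. On PEC-deprived replicates 1, 2 and 3 the thick ascending limb mean was -0.18, -1.28 and -1. The distal tubule and collecting duct mean was -0.03, -0.53 and -0.52, and the PEC mean was -0.19, -0.66 and -0.49. All of these are descriptions of 3 arrays, with no test. Some orders among the 8 members rest on gaps smaller than the standard error of the gene's difference. On PEC-deprived replicates 1, 2 and 3 Gsta3 read 4.56, 4.57 and 4.64, and Mgst1 read 8.98, 8.99 and 9.20. Gstk1 read 6.96 on replicate 1 and 6.94 on replicate 3. The split of the 8 members by order is therefore uncertain.

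**Figure D3:**
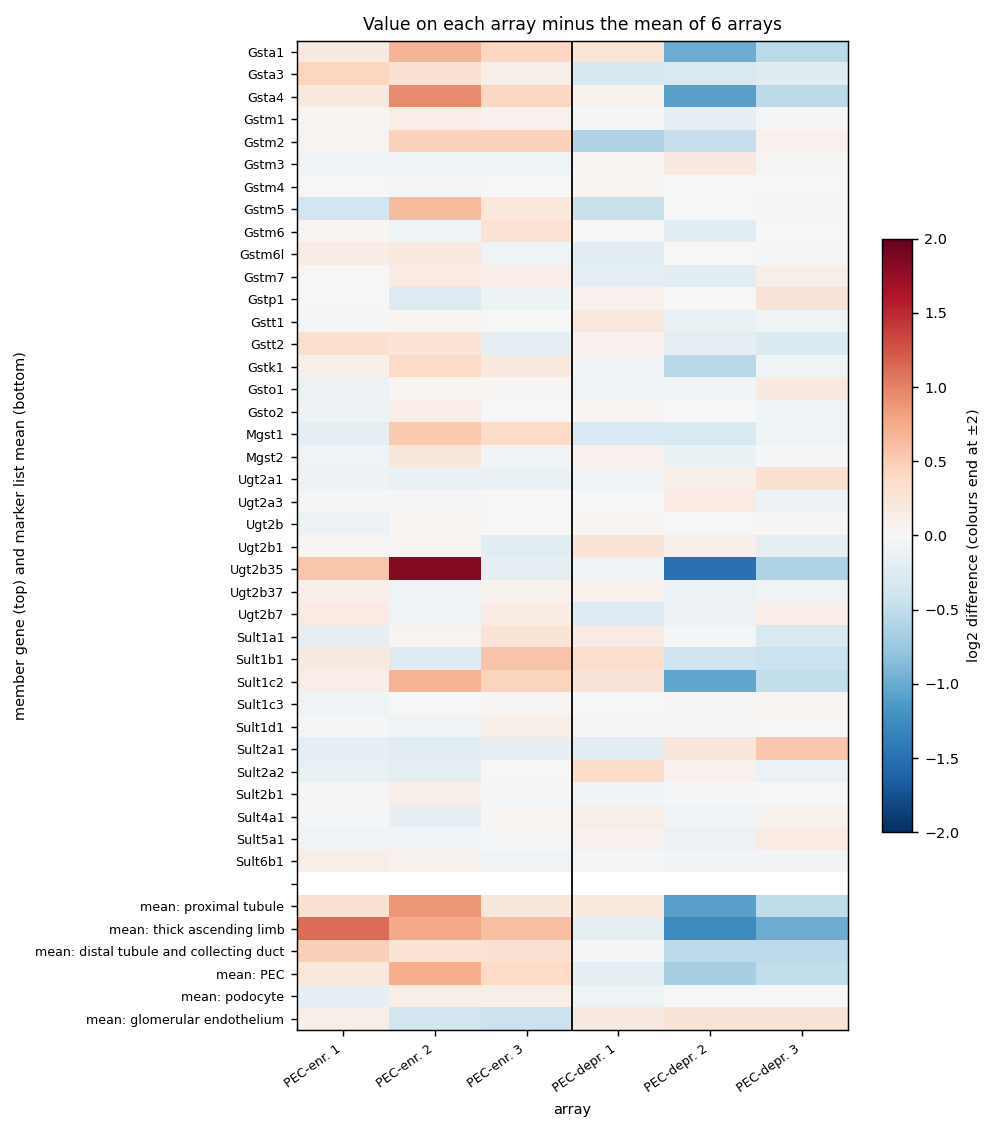
Value on each array minus the mean of all 6 arrays (colour, log2 scale, ending at ±2) for the 37 members by row, with the means of 6 cell type marker lists below and the 6 arrays as columns. PEC-deprived replicate 2 is lowest in Gsta1, Gsta4, Gstk1, Ugt2b35 and Sult1c2. It is also lowest in the means of the proximal tubule (-1.09), thick ascending limb (-1.28), distal (-0.53) and PEC (-0.66) lists. In the podocyte (-0.01) and glomerular endothelium (0.26) lists it is not the lowest array.

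Markers of other cell types differed in mean between the isolates too. The 21 measured proximal tubule genes of 22 listed all averaged higher in PEC-enriched isolates, with a median log2 fold change of 1.03 (Slc13a3 1.16, Kap 1.24). Without PEC-deprived replicate 2 the median was 0.681, with Slc13a3 at 0.77 and Kap at 0.76, and without PEC-deprived replicate 1 Kap was at 1.98. Their mean relative to all arrays was 0.30, 0.89 and 0.22 on the PEC-enriched and 0.19, -1.09 and -0.51 on the PEC-deprived arrays. PEC markers were higher in 14 of 15 genes (median 0.80), with Aldh1a1 at 1.91 and Cdh6 at 1.64, and ran 0.21, 0.73 and 0.40 against -0.19, -0.66 and -0.49. The mean of the 3 alpha class genes was 0.27, 0.65 and 0.32 against -0.01, -0.80 and -0.43. Gsta1 and Gsta4 are 2 of these 3 genes and largely set this order of the arrays, so their sharing it adds nothing. Gsta3 had another order. Markers of the thick ascending limb (9 of 10 measured, all higher, median 1.45) and of the distal tubule and collecting duct (13 of 14 higher, median 0.54) were higher as well. Podocyte markers had a median of 0, and all 15 endothelial markers had lower means (median -0.44). In none of these lists did a gene pass an adjusted p under 0.01 in limma. The regularised test called 7 thick ascending limb genes, 3 distal genes and 7 PEC genes, all higher in PEC-enriched isolates, and 0 proximal tubule genes. Many genes of the PEC and tubule lists, among them Aldh1a1, Cdh6 and Slc13a3, are on the study's list of differentially expressed genes from these arrays. Their direction here is therefore not independent evidence. In the study's staining of rat kidney, ALDH1A1, CDH6 and PAX8 were seen in PECs and also in tubules. The part of tubule cells and of PECs in the values of the conjugating enzymes was not tested.

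Of the 30 genes that supply and recycle glutathione, 22 had the higher mean in PEC-enriched isolates (median log2 fold change 0.17, or 0.101 without PEC-deprived replicate 2), and 0 were called. Slc3a1, a subunit of the cystine and dibasic amino acid transporter, read 9.47, 10.23 and 9.35 against 9.22, 7.72 and 8.36, a difference of 1.25 without overlap (SE 0.371, limma adjusted p = 0.302). Anpep, the brush border aminopeptidase that can split cysteinylglycine, read 8.36, 8.80 and 8.23 against 7.91, 6.74 and 7.25, a difference of 1.16 (SE 0.278, limma adjusted p = 0.216). Ggt1, the enzyme that opens the breakdown of glutathione and its conjugates outside the cell, differed by 0.86 (SE 0.243, limma adjusted p = 0.279). The groups of Anpep and Ggt1 did not overlap either. The mean was lower for 8 genes of the list, by most in Ggt5, which was named after its values were seen. Ggt5 differed by -0.50 without overlap (SE 0.184, limma adjusted p = 0.386). Gclc, the catalytic subunit of the rate-limiting step of glutathione synthesis, was named after its values were seen. It differed by 0.06 (SE 0.0878, limma adjusted p = 0.892).

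For glucuronic acid, 7 of 10 measured genes (11 listed) averaged higher, the median was 0.21 and 0 were called. Miox, which opens the inositol ring to give glucuronic acid, read 9.65, 10.25 and 9.99 against 9.67, 7.76 and 8.55, a difference of 1.30 with overlap at PEC-deprived replicate 1 (SE 0.417, limma adjusted p = 0.327), or 0.85 without PEC-deprived replicate 2. Dcxr and Cryl1, enzymes further along the same route, differed by 0.82 (SE 0.25, limma adjusted p = 0.311) and 0.79 (SE 0.245, limma adjusted p = 0.322), both without overlap. The 3 genes with the largest differences in this list thus belong to the breakdown of glucuronic acid and inositol rather than to the making of its UDP form.

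For sulfate, 10 of 15 measured genes (18 listed) averaged higher, the median was 0.13 and 0 were called. Papss2, which makes the sulfate donor PAPS, read 6.89, 7.13 and 6.69 against 6.46, 5.98 and 6.13, a difference of 0.71 without overlap (SE 0.156, limma adjusted p = 0.19). The sodium-sulfate cotransporter Slc13a1 differed by 1.16 (SE 0.404, limma adjusted p = 0.358) and the sulfate exchanger Slc26a1 by 0.62 (SE 0.249, limma adjusted p = 0.434), and both overlapped between the groups. The difference of Slc26a1 was 0.31 without PEC-deprived replicate 2, and that of Slc13a1 was 0.77 without PEC-enriched replicate 2. The median of the list was 0.066 without PEC-enriched replicate 2.

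A mixed list of other enzymes of conjugation and related steps, among them methyltransferases, glycine N-acyltransferases, acyl-CoA synthetases and a galactosyltransferase, had higher means in 10 of 13 measured genes (18 listed), with a median of 0.26. Inmt, a methyltransferase of indole amines, read 7.82, 8.55 and 8.10 against 7.0, 6.06 and 5.96, and the groups lay well apart. Its difference of 1.82, or 3.52-fold, had a limma adjusted p of 0.153 (SE 0.288). Glyat, which joins glycine to acyl-CoA, differed by 1.24 (SE 0.325, limma adjusted p = 0.245) and the acyl-CoA synthetase Acsm3 by 1.23 (SE 0.427, limma adjusted p = 0.36), both without overlap. Without PEC-deprived replicate 2 the difference of Acsm3 was 0.68. The regularised test called Inmt (adjusted p = 0.000132), Glyat (adjusted p = 0.0082) and Anpep (adjusted p = 0.0083). Limma called none of the 3. All 3 are on the study's list of differentially expressed genes from these arrays, as are Slc3a1 and Miox.

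**Figure D4:**
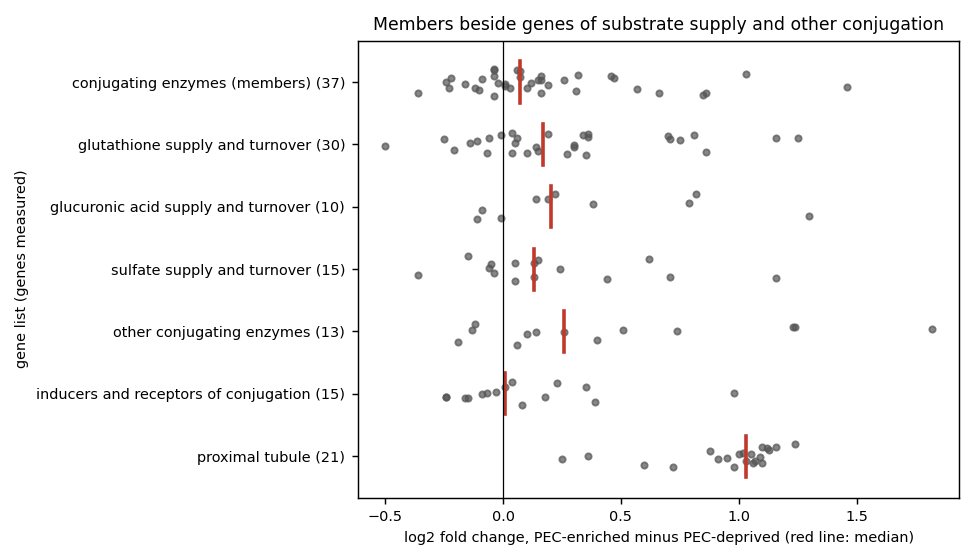
Log2 fold change (PEC-enriched minus PEC-deprived) of each measured gene, 1 point a gene, for the conjugating enzymes, the supply lists, the receptor list and the proximal tubule markers, with red lines at the medians. The medians run from 0.01 in the receptor list to 0.26 in the list of other conjugating enzymes and 1.03 in the proximal tubule list, and the highest single point is Inmt at 1.82.

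The factors and receptors that control conjugating enzymes showed no common direction, with 8 of 15 measured genes (18 listed) higher, 7 lower and a median of 0.01, which ran from -0.051 to 0.053 with 1 array left out. Hnf4a, a nuclear receptor of proximal tubule and liver that is also on the proximal tubule list, differed by 0.98 without overlap (SE 0.279, limma adjusted p = 0.281). Nr1i2, the pregnane X receptor, differed by 0.39 (SE 0.121, limma adjusted p = 0.322) and Ppara, the fatty acid receptor, by 0.35 (SE 0.15, limma adjusted p = 0.465), or 0.19 without PEC-deprived replicate 2. Nfe2l2, which encodes Nrf2, and its inhibitor Keap1 were named after their values were seen. They differed by -0.03 and -0.07, less than their standard errors (0.0943 and 0.109).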

How the data were processed

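RNA of 3 PEC-enriched and 3 PEC-deprived isolates was measured on 1 array each. The authors used RMA for background adjustment, quantile normalization of log intensities and summary by probeset, and the deposited values are log2 expression values, here running from 2.13 to 13.87 with array medians of 6.69 to 6.75. The log base, not stated for the table, was read as 2, as RMA gives. The version of RMA was not given in the sources used here. Quantile normalization gives all arrays one distribution, so a shift of most genes would not be seen. Array correlations lay between 0.9816 and 0.9937. The number of arrays limits the precision, and p-values measure only the spread between these preparations.

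All 29215 probesets were fitted with limma 3.58.1 in R 4.3.3 (lmFit, eBayes, two-sided, no covariate, Benjamini-Hochberg over all probesets, adjusted p under 0.01). The study's methods name a Bayesian test with an unstated prior, so a regularised test (prior weight 10, window of 101 probesets) was an alternative. Symbols came from the platform annotation, which may be old, with 15310 probesets carrying 1 symbol, 323 several and 13582 none, and 15279 of the first were matched to RefSeq (GRCr8) by Entrez ID. Members, supply lists and marker lists were chosen with earlier results of these data known. All members are named, and values on every array are given for up to 3 members of a family with the largest differences and its brightest member. Of supply lists up to 3 and of marker lists up to 2 genes are named, and other names are said to be chosen after their values were seen. Gstm3 is given by array because of its lack of overlap.

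Further alternatives added a replicate block or an intensity trend, or used only probesets with 1 symbol or above the median level, an adjusted p under 0.05, cyclic loess, a mean over the probesets of each gene, or 5 of the 6 arrays. On 5 simulated data sets with 200 changed probesets among 29215, limma found 89.4% of the log2 changes of size 1 and 99.6% of those of size 2, with 1.66% of calls false, and the regularised test 96.8% and 100% with 7.17% false. Simulated noise was independent between probesets. In the measured data 140 of 14506 genes had a positive log2 fold change above 1, yet limma called 0 genes. Gsta4 and Ugt2b35, the members of that size, had standard errors of 0.295 and 0.514. The simulated rates therefore cannot show that such a change in a member would have been called. Marker lists of mesangium and smooth muscle (median log2 fold change -0.22), leukocytes (-0.37), hepatocytes (-0.07) and erythroid cells (0.19) were also summarised. Figures were drawn with matplotlib 3.10.9.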

Additional observations from a re-analysis of the deposited data

How the results depend on the processing

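Under every alternative that was run, 0 members were called. The smallest adjusted p among the members was 0.32 with the replicate block, 0.153 with an intensity trend, 0.185 after cyclic loess, 0.166 with probesets averaged for each gene, 0.178 with only probesets above the median level, 0.0517 with only probesets of 1 symbol and 0.0231 in the regularised test. With 1 array left out it ran from 0.0738 (Mgst1, without PEC-enriched replicate 1) to 0.471. Only the regularised test called pathway genes, 3 in number. With only probesets above the median level, 11 members had a higher mean, their median log2 fold change was 0.213 and 0 were lower without overlap. After cyclic loess the median was 0.103 and 1 member was lower without overlap. With each array left out in turn, the median ran from 0.056 to 0.107 (without PEC-deprived replicate 1), members with a higher mean from 21 to 26, those higher without overlap from 4 to 10 (10 without PEC-enriched replicate 1 or PEC-deprived replicate 1, 9 without PEC-enriched replicate 3 or PEC-deprived replicate 3) and those lower without overlap from 2 to 5 (5 without PEC-deprived replicate 2 or 3, 4 without PEC-enriched replicate 3). Fewer arrays make a lack of overlap easier to reach.

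The sign turned with an array left out in 8 members near 0, with ranges of -0.08 to 0.04 for Gsto1, -0.03 to 0.09 for Gsto2, -0.07 to 0.12 for Gstt1, -0.03 to 0.12 for Mgst2, -0.01 to 0.23 for Sult1a1, -0.05 to 0.05 for Sult1d1, -0.10 to 0.04 for Ugt2a3 and -0.07 to 0.00 for Ugt2b. The replicate numbers were not taken to pair the arrays, since the sources do not say that they do. Deviations of same-numbered arrays from their group means correlated at -0.0287, 0.0519 and 0.1. With 3 arrays in each group, such correlations cannot decide whether arrays are paired. PEC-enriched replicates 2 and 3 correlated best with the PEC-deprived array of their own number, and PEC-enriched replicate 1 with PEC-deprived replicate 2 (0.0827). Whether same-numbered arrays share a rat is not stated. The block left the calls of members and pathway genes at 0.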

Other observations

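Genes of the glutathione peroxidase family did not share one direction, and none passed the limma threshold. They were named after their values were seen. Gpx3, the secreted peroxidase made by the kidney, read 12.26, 12.59 and 11.98 on the PEC-enriched and 12.01, 10.99 and 11.72 on the PEC-deprived arrays, a log2 fold change of 0.70 with overlap (SE 0.259, limma adjusted p = 0.386). Gpx8, a peroxidase of the endoplasmic reticulum, was higher without overlap by 0.30 (SE 0.108, limma adjusted p = 0.374). Gpx6 and Gpx7 were lower without overlap, with differences of -0.25 (SE 0.101, limma adjusted p = 0.432) and -0.14 (SE 0.093, limma adjusted p = 0.701). Gpx6 had a mean of 4.04, well below the median level of all probesets (6.72), and may lie close to background. Of all genes, 9.68% were higher and 9% lower without overlap. Gpx1 (0.19), Gpx2 (0.15) and Gpx4 (-0.07) overlapped between the isolates.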
